A study of Rattus norvegicus with 23 samples.

Results

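The inward rectifier potassium channels of the rat heart were followed here over 6 regions, as 9 genes that encode 7 pore-forming subunits (*Kcnj2*, *Kcnj3*, *Kcnj4*, *Kcnj5*, *Kcnj8*, *Kcnj11*, *Kcnj12*) and 2 regulatory sulfonylurea receptors (*Abcc8*, *Abcc9*). A probe was assigned to a gene where its accession belonged to that gene, and the highest probe was taken on each array. The 9 genes had 13 probes and were 9 of 16544 genes named on the array. All 9 passed the filter on low values, which kept genes above 4 on the log2 scale on at least 1 array. The regions were left atrium (LA), left ventricle (LV), right ventricle (RV), sinoatrial node region (SA), pulmonary vein (PV) and pulmonary artery (PA) of male Wistar rats aged 8 to 11 weeks, with no difference in genotype or treatment among regions, with 4 arrays a region and 3 for RV. The tissue came from 12 rats, 2 rats were pooled for each SA sample, and each LV mass was cut into pieces that served as samples. The labels do not tie arrays to animals, so p-values measure the spread between these samples, which may share an animal. LA was taken next to PV, soft tissue with the vagus nerve and fat had been trimmed off, and whole tissue was used.

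Inward rectifiers pass potassium more easily into the cell than out of it and hold the resting membrane potential close to the potassium equilibrium. *Kcnj2*, *Kcnj4* and *Kcnj12* encode subunits of the strong rectifiers that carry the background current IK1 of myocytes. *Kcnj3* and *Kcnj5* encode the partners of the acetylcholine-activated channel IKACh, which G protein βγ subunits open after vagal stimulation of muscarinic receptors and which is known for slowing the sinoatrial node and shortening the atrial action potential. *Kcnj8* and *Kcnj11* encode the pores of ATP-sensitive channels (KATP), which close when ATP is high, and each pore assembles with a sulfonylurea receptor from *Abcc8* or *Abcc9*. KATP channels of vascular smooth muscle and pericytes are known to be built from *Kcnj8* and *Abcc9*, and those of ventricular myocytes from *Kcnj11* and *Abcc9*.

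Promoter windows of 300 bases, 250 before to 50 after the annotated start, were found in RefSeq for 5 of the 9 genes (build GRCr8). *Kcnj8* and *Abcc9* lie next to each other on chromosome 4 with 0 annotated genes between them, and *Kcnj11* and *Abcc8* likewise on chromosome 1. The windows of *Kcnj8* and *Abcc9* are shown because the pair is neighbouring and changed in the same direction in LA and SA, and that of *Kcnj5* because it had the largest difference between regions. Capitals mark the GC box GGGCGG on either strand, and all 3 genes lie on the minus strand, so the sequences run 5′ to 3′ on that strand.
Kcnj5, chr8:39011047-39011346: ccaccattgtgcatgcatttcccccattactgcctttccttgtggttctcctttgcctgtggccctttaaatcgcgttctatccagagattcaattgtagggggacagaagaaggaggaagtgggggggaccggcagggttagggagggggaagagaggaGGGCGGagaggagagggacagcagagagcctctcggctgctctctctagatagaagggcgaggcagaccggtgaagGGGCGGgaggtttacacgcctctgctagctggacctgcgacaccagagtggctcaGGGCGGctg
Kcnj8, chr4:177246499-177246798: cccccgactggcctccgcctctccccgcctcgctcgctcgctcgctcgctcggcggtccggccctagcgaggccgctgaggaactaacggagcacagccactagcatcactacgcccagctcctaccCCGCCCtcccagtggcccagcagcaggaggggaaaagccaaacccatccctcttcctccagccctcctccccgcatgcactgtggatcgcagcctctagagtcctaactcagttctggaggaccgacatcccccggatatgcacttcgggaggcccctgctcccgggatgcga
Abcc9, chr4:177386299-177386598: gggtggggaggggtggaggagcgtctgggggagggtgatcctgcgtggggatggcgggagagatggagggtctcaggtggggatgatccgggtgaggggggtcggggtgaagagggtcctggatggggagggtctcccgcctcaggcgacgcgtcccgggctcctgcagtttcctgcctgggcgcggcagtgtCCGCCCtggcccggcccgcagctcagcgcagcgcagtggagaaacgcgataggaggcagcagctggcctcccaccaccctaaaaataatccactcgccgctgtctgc
The *Kcnj5* window held 3 GC boxes, and those of *Kcnj8* and *Abcc9* held 1 each, 123 and 57 bases before the start. A GC box was found in 4 of the 5 windows and in 33.1% of the 33469 promoter windows of the same length. The E-box CANNTG was found in 4 of the 5 windows, against 72.1% of all windows, and *Kcnj8* was the window without it. The T-box half-site AGGTGT was found in 1 of the 5 windows, that of *Kcnj4*, where 1 of its 2 matches overlapped an E-box, against 13.6% of all windows. The GATA motif AGATAA, the TATA motif TATAAA, the CArG box and the MEF2 box were found in 0 of the 5 windows, against 11.6%, 14.2%, 1.64% and 0.565% of all windows. Both strands were searched, and a match is a description of letters only.

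Signals are the authors' normalized intensities on a linear scale, and differences are on the scale of log2(signal + 1). A signal sets the same gene side by side between regions, and signals of different genes cannot be ranked because their probes differ. The share of probes well above background was 58.6% to 79.8% per array, the lowest such signal lay between 7.6 and 43.4, and no spot was saturated. Arrays lay in 2 rows on 3 slides, and the percent was 72.7 to 79.8 in the first row and 58.6 to 69.4 in the second. Summed signals of markers went with the labels: sinoatrial pacemaker markers (5 of 5 measured) reached 6930 to 8000 in SA and 2399 to 6312 elsewhere, atrial myocyte markers (5 of 5) were 1286600 to 1758141 in LA, SA and PV, 237646 to 423208 in LV and RV and 3315 to 38999 in PA, and *Shox2* was above background on 0 arrays of LV and RV. In PA, cardiomyocyte markers (7 of 8 measured) summed to 127906 to 198042, against 1428237 or more on every other array, and smooth muscle markers (6 of 6) to 477573 to 566768, against 69358 or less.

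Over the 6 regions, 8 of the 9 genes differed (limma F-test, adjusted p from 5.96e-17 for *Kcnj11* to 0.0263 for *Kcnj2*), against 64.4% of the 16089 genes tested. *Kcnj4* did not pass (adjusted p = 0.228). *Kcnj2* lost its call with normexp background correction (adjusted p = 0.0885), with a pseudocount of 16, with the replicate block and without PA replicate 1 or PA replicate 3. The acetylcholine-activated channel genes *Kcnj3* and *Kcnj5*, with *Kcnj12*, were highest in LA, SA and PV, lower in LV and RV and lowest in PA. *Kcnj8* ran the other way, highest in PA and lowest in LA. *Kcnj11* and *Abcc8* were far lower in PA than in the other regions.

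**Figure D1:**
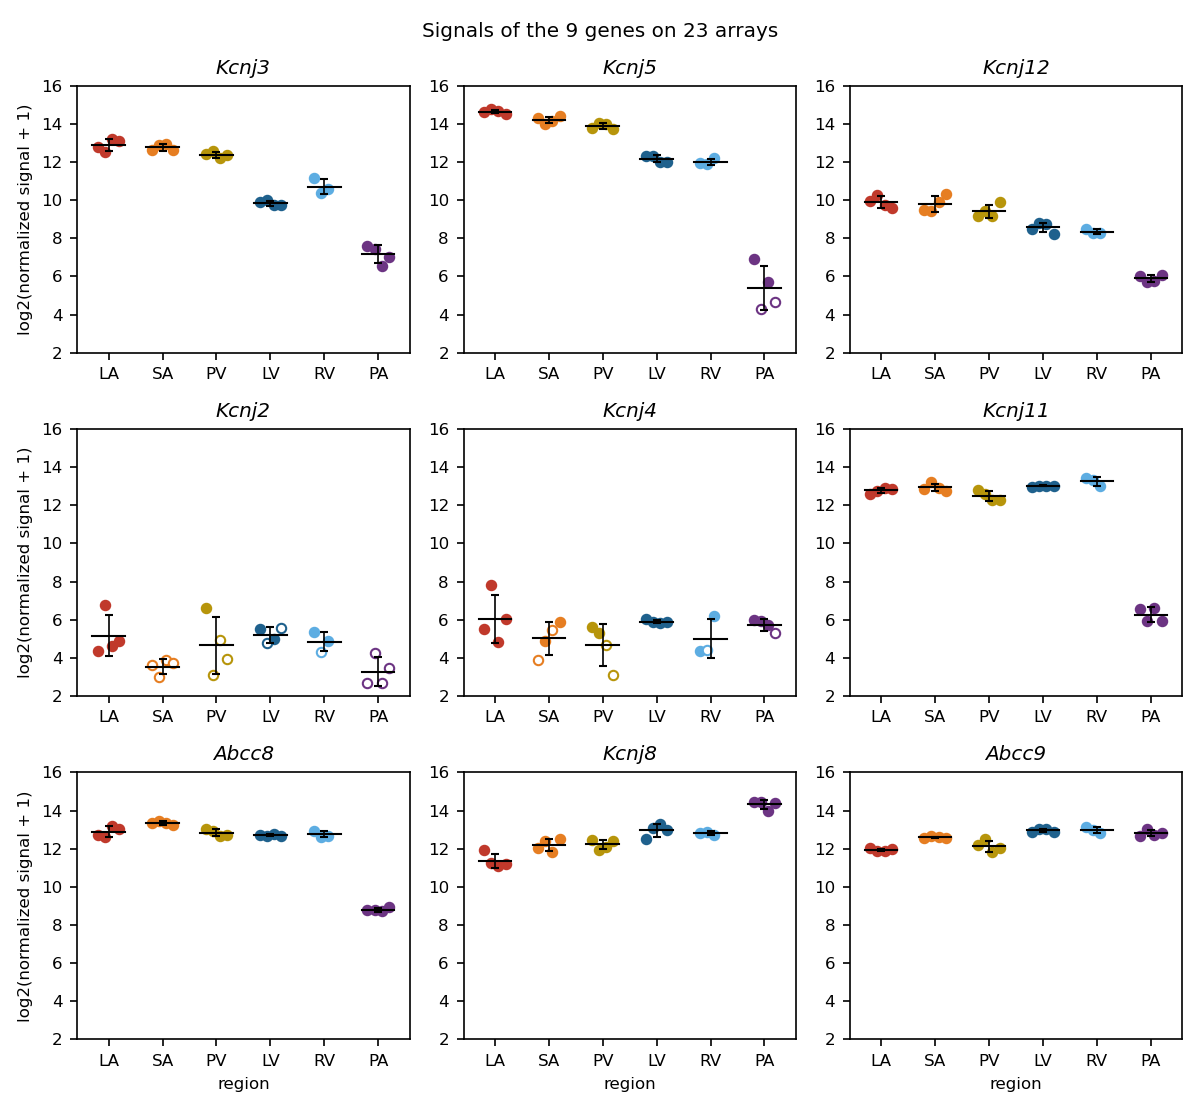
Each panel plots 1 gene, with the region on the x axis and log2(normalized signal + 1) on the y axis. Each point is an array, filled where the probe was well above background, and lines and bars are the mean and SD (n = 4 arrays, 3 for RV). *Kcnj3*, *Kcnj5* and *Kcnj12* step down from LA, SA and PV to LV and RV and again to PA. *Kcnj11* and *Abcc8* are far lower in PA than elsewhere, *Kcnj8* peaks in PA, and many points of *Kcnj2* and *Kcnj4* are open.

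LA was compared with the ventricles (V, the mean of LV and RV) to find atrial and ventricular channel genes. Of the 9 genes, 3 were higher in LA (*Kcnj3*, *Kcnj5*, *Kcnj12*) and 2 were lower (*Kcnj8*, *Abcc9*), while 35.4% of all genes tested differed, 16.9% higher and 18.4% lower. In SA against V, 4 were higher (*Kcnj3*, *Kcnj5*, *Kcnj12*, *Abcc8*) and 3 were lower (*Kcnj8*, *Abcc9*, *Kcnj2*), with 28.1% of all genes called, 12.3% higher and 15.8% lower. In SA against LA, 3 were higher in SA (*Kcnj8*, *Abcc8*, *Abcc9*) and 0 were lower, with 15.3% of all genes called, 7.03% higher and 8.26% lower. LA and SA lay unevenly over the rows, 3 of 4 LA arrays and 1 of 4 SA arrays in the first. With array row as a block *Kcnj2* was also called, lower in SA (adjusted p = 0.0195), where 0 of 4 arrays were above background. Within the first and the second row the log2 differences were 0.98 and 0.87 for *Kcnj8*, 0.45 and 0.69 for *Abcc8* and 0.69 and 0.68 for *Abcc9*. In PA against the mean of the other 5 regions, 2 were higher (*Kcnj8*, *Abcc9*) and 6 were lower, with 59.1% of all genes called, 31.4% higher and 27.7% lower. These comparisons share arrays, so they are not independent of each other. The median log2 difference of the 9 genes was 0.17 in LA against V (all genes -0.09), -0.09 in SA against LA (all genes 0.01) and -3.31 in PA (all genes 0.05).

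**Figure D2:**
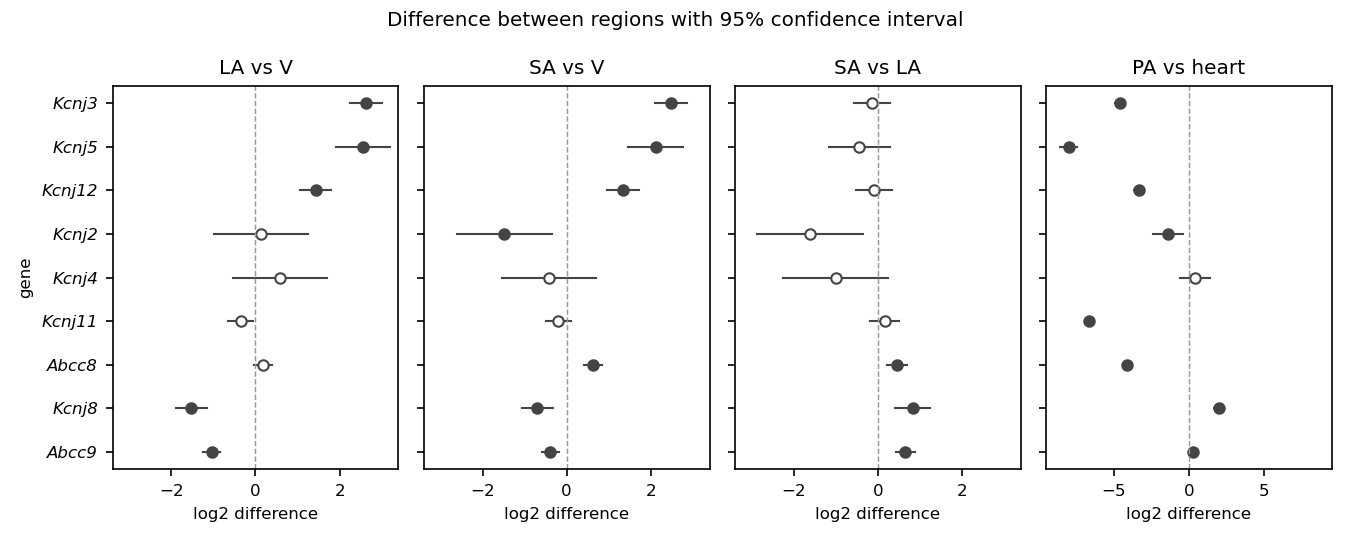
The x axis is the log2 difference between the first and the second region named above each panel and the y axis lists the 9 genes. Points are estimates of limma over 23 arrays, lines are 95% confidence intervals and filled points had an adjusted p below 0.05. *Kcnj3* lies at 2.63 in LA vs V, *Kcnj8* at -1.53, and the widest intervals are those of *Kcnj2* and *Kcnj4*. The panel of PA has a wider x axis.

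*Kcnj3*, whose subunit gives the acetylcholine-activated channel its full conductance, had signals of 7036, 5998, 9413 and 8872 in LA and of 6296, 7588, 8048 and 6340 in SA. In V they were 949, 1039, 872 and 848 (LV) and 2297, 1354 and 1539 (RV). In PV they were 5462, 6211, 4747 and 5272, and in PA 196, 175, 94 and 129. All arrays of LA, SA and PV were above all arrays of V, and all of V were above all of PA. *Kcnj3* was 6.17-fold higher in LA than in V (log2 2.63 ± 0.18 SE, adjusted p = 1.27e-09, limma) and 5.63-fold higher in SA than in V (2.49 ± 0.18 SE, adjusted p = 3.27e-09). SA and LA did not differ beyond their spread (log2 -0.13, 95% interval -0.56 to 0.30). PA was 23.7-fold lower than the other regions (adjusted p = 2.50e-15).

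*Kcnj5*, the partner subunit, had signals of 25412, 27999, 26381 and 23855 in LA, 20357, 16315, 18315 and 21653 in SA, and 13968, 17103, 16141 and 13484 in PV. In LV they were 5172, 5197, 4185 and 4147, and in RV 3925, 3832 and 4756. The order LA, SA and PV above V thus matched that of *Kcnj3*, with every array of LA above every array of SA and PV. *Kcnj5* was 5.89-fold higher in LA than in V (log2 2.56 ± 0.31 SE, adjusted p = 2.23e-06, limma) and 4.34-fold higher in SA than in V (2.12 ± 0.31 SE, adjusted p = 2.92e-05). Against LA, SA was at -0.44 (95% interval -1.17 to 0.29, adjusted p = 0.467) and PV at -0.78 (-1.51 to -0.05, adjusted p = 0.168). Both passed when the spread was taken from the arrays compared alone, with adjusted p = 0.0376 for SA and 0.00749 for PV. With normexp background correction both passed too, with adjusted p = 0.0450 for SA and 0.00173 for PV, and PV also passed without PA replicate 1. The SD of *Kcnj5* was 1.17 in PA and 0.10 to 0.18 in the other regions. In PA the signals were 119, 18.7, 50.7 and 24.3, of which 2 were well above background. The array with 119, PA replicate 1, also had the highest summed atrial myocyte markers of PA, 38999 against 3315 to 5246 on the others, and the highest endothelial sum, 51125 against 26505 to 31040, whose part in the value was not tested. PA was 256-fold lower than the other regions (log2 -8.00 ± 0.27 SE, adjusted p = 1.64e-15), or -7.97 where the dim arrays were set at that lowest signal and -8.51 without PA replicate 1. The second, dimmer probe of *Kcnj5* was also higher in LA than in V, with 5 of the 7 V arrays well above background. In PA its signals were 21.8, 8.3, 13.7 and 10.0, with 1 of 4 well above background, so that it gives no size for the drop in PA.

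*Kcnj3* and *Kcnj5* rose in the same comparisons of heart regions. Their log2 ratio on the same array differed by 0.14 between LA and V, here the 7 ventricular arrays pooled (exact two-sided permutation test, p = 0.703) and by 0.31 between SA and LA (p = 0.257). Across the 23 arrays the correlation was 0.94, and 0.09 after the region means were removed, as a description of arrays that share regions.

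The receptors and G proteins that gate this channel were given by a list of 25 genes, of which 7 were higher and 10 lower in LA than in V, against 16.9% and 18.4% of all genes, with a median log2 difference of -0.17 (all genes -0.09). The muscarinic receptor gene *Chrm2* was 2.21-fold higher in LA than in V (adjusted p = 8.87e-07). The α subunit gene *Gnao1* was 3.11-fold higher, and the γ subunit gene *Gng10* 1.15-fold. The γ subunit gene *Gng2* was higher as well, but its mean log2 signal of 3.92 in LV lay within the range of the lowest signals above background (3.10 to 5.47), so that its fold is not given. Among regulators that speed GTP hydrolysis on α subunits, *Rgs6* was 2.07-fold and *Rgs2* 2.07-fold higher, as was *Gnb5*, the β subunit known to bind *Rgs6*, by 1.32-fold. The largest difference downward within the list was that of the β subunit gene *Gnb3*, 5.13-fold lower in LA. *Rgs5* was 2.82-fold, *Gng7* 2.01-fold, *Rgs4* 1.85-fold and *Gng11* 1.80-fold lower, and *Rgs16*, *Gng12*, *Gng5* and *Gnai2* were lower by 1.17- to 1.70-fold. *Gnb4* was lower too, with no fold given since its mean log2 signal of 4.81 in LA lay in that same range. *Rgs5* is also a pericyte marker. In SA against LA, 3 of the 25 were higher, *Gnao1* by 2.50-fold, *Rgs5* by 1.79-fold and *Gnb3* by 1.65-fold, and 2 were lower, *Rgs2* by 2.39-fold and *Gnai2* by 1.37-fold, against 7.03% and 8.26% of all genes. In PA, 13 of the 25 were higher and 8 lower, against 31.4% and 27.7% of all genes. *Chrm2* was 24.9-fold, *Gnb3* 8.60-fold, *Rgs6* 6.56-fold, *Gnao1* 3.31-fold, *Gng7* 2.67-fold, *Gng5* 1.53-fold and *Rgs5* 1.49-fold lower in PA, and *Gng2*, above background on 18 of 23 arrays, was lower too. The genes higher in PA were led by *Rgs2* (5.30-fold) and *Gng10* (4.0-fold), followed by *Rgs10*, *Gng12*, *Gnai2*, *Gnai3*, *Gnb1*, *Rgs3*, *Gnb2*, *Rgs4* and *Gng11* (1.33- to 3.67-fold). *Gnai1*, above background on 2 of 23 arrays, and *Gnb4*, on 18, were also higher, with no fold given.

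*Kcnj12* encodes a strong rectifier subunit of IK1. Its signals were 980, 1258, 864 and 765 in LA, 724, 697, 977 and 1281 in SA and 585, 682, 574 and 951 in PV. In LV they were 362, 447, 426 and 304, in RV 359, 310 and 311, and in PA 64.8, 52.0, 53.0 and 66.1. LA, SA and PV overlapped one another, and all their arrays were above those of V. *Kcnj12* was 2.69-fold higher in LA than in V (log2 1.43 ± 0.18 SE, adjusted p = 3.35e-06, limma) and 2.53-fold higher in SA than in V (adjusted p = 1.03e-05), and PA was 9.92-fold lower than the other regions (log2 -3.31, adjusted p = 3.0e-13, or -2.27 at the least over other settings). Between PV and LV, neighbours in the order of its levels, the log2 difference was 0.84 (adjusted p = 0.00309).

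*Kcnj2*, a strong rectifier subunit of IK1 like *Kcnj12*, was close to background. It was well above background on 9 of 23 arrays, 4 of 4 in LA, 2 of 4 in LV, 2 of 3 in RV, 1 of 4 in PV and 0 of 4 in SA and in PA. The signals were 19.6, 106, 23.9 and 28.2 in LA, 45.2, 26.1, 30.2 and 45.7 in LV, and 39.6, 18.8 and 28.8 in RV. They were 97.6, 7.6, 29.8 and 14.2 in PV, 11.1, 6.9, 13.5 and 12.2 in SA, and 5.3, 18.1, 5.5 and 10.1 in PA. LA and V overlapped (log2 0.13, 95% interval -0.998 to 1.26). In SA, where no array was well above background, *Kcnj2* was called lower than in V (adjusted p = 0.0458, limma). The fold was 1.56 with the SA arrays set at the lowest signal above background, and the log2 difference was only -0.31 with normexp background correction. The call was lost in 20 of 38 other settings (15 alternatives and 23 arrays left out in turn). These included leaving out any 1 of the 4 SA arrays, LV replicate 1, 3 or 4, RV replicate 1 or 3, LA replicate 3 or 4, PV replicate 3 or PA replicate 4. In PA it was called lower than in the other regions (adjusted p = 0.0144), by 1.29-fold with the PA arrays set in the same way. The log2 difference was -0.35 at the least over other settings, and this call was lost without PA replicate 1 or PA replicate 3. Dim arrays of the regions compared with SA and PA kept their measured signals, so these folds are not lower bounds.

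*Kcnj4*, which encodes another strong rectifier subunit, was well above background on 17 of 23 arrays. Its signals ranged from 27.2 to 222 in LA, 56.7 to 63.5 in LV, 19.8 to 71.1 in RV, 14.0 to 58.8 in SA, 7.6 to 47.9 in PV and 38.5 to 61.7 in PA. All LV arrays were above all PV arrays, the other pairs of regions overlapped, and 0 of the 8 comparisons called it.

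Anchoring proteins and enzymes that make the membrane lipid PIP2, which these channels need to open, were given by a list of 14 genes, of which 12 were named on the array. In LA, 0 were higher and 2 were lower than in V, among them the scaffold gene *Akap5* by 1.26-fold, against 16.9% and 18.4% of all genes. In SA, 4 were higher than in LA and 0 lower, against 7.03% and 8.26% of all genes. They were *Akap5* by 3.37-fold, *Pip5k1b* by 1.84-fold, *Cav3* by 1.43-fold and *Pip5k1c* by 1.20-fold. In PA, 7 were higher (*Dlg1*, *Dlg3*, *Cask*, *Lin7c*, *Pip5k1a* and *Pip5k1c* by 1.22- to 3.82-fold, and *Dlg4* with no fold given) and 4 were lower, among them the muscle caveolin gene *Cav3* by 8.59-fold, *Pip5k1b* by 3.06-fold and *Lin7b* by 2.07-fold, against 31.4% and 27.7% of all genes. The median log2 difference of the 12 was -0.06 in LA, 0.21 in SA and 0.36 in PA (all genes -0.09, 0.01 and 0.05). *Dlg4* was above background on only 4 arrays.

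*Kcnj11*, the pore of the KATP channels of myocytes, had signals of 6147, 6980, 7813 and 7373 in LA and 7382, 9559, 7782 and 6987 in SA. They were 8103, 8285, 8410 and 8451 in LV, 11026, 10365 and 8248 in RV and 7249, 6115, 5005 and 5008 in PV. No pair of neighbours in the order of these 5 regions differed beyond its spread, with adjusted p from 0.297 to 0.783. Every PV array was nevertheless below every LV and RV array, a comparison that was not tested. All arrays of LA were below all arrays of V (1.28-fold lower), and the difference missed the threshold (adjusted p = 0.0649), which it passed in 6 of 38 other settings, among them with array row as a block (adjusted p = 0.0328), without PA replicate 3 and without RV replicate 3. The dimmer probe, well above background on every LA, LV and RV array, gave -0.02 between LA and V (adjusted p = 0.946 over all probes). In PA the signals were 92.5, 59.7, 97.9 and 59.7. PA was 100.1-fold lower than the other regions (log2 -6.64 ± 0.13 SE, adjusted p = 5.98e-19, limma), or 9.70-fold by the dimmer probe, which was above background on 2 of the 4 PA arrays.

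*Abcc8*, its neighbour in the genome, encodes the sulfonylurea receptor also known from pancreatic β cells and from rodent atria. Its signals were 10388, 11104, 10596 and 9610 in SA, the highest of all arrays. They were 6754, 6298, 9467 and 8365 in LA, 8347, 7864, 6593 and 6650 in PV, 6715, 6546, 6902 and 6471 in LV and 7793, 6348 and 6549 in RV. *Abcc8* was 1.37-fold higher in SA than in LA (log2 0.45 ± 0.11 SE, adjusted p = 0.0109, limma), 1.54-fold higher than in V (0.62 ± 0.10 SE, adjusted p = 9.46e-05) and 1.42-fold higher than in PV (adjusted p = 0.0197). By the dimmer probe SA exceeded LA by 0.46 and the call was lost (adjusted p = 0.0829), as it was with only the arrays compared (adjusted p = 0.0783). LA and V overlapped, with a log2 difference of 0.17 (95% interval -0.04 to 0.39). In PA the signals were 436, 434, 415 and 483, 17.3-fold lower than the other regions (adjusted p = 2.71e-18), or 9.14-fold by the dimmer probe.

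*Kcnj8*, the pore of vascular KATP channels, had its highest signals in PA, at 22485, 22221, 16220 and 21735. They were 5800, 8704, 9884 and 8056 in LV and 7342, 7627 and 6685 in RV. They were 5662, 3896, 4335 and 5424 in PV, 4193, 5319, 3685 and 5751 in SA, and 3876, 2436, 2167 and 2316 in LA. All PA arrays were above all others, and all LA arrays were below all of V. PA was 4.04-fold higher than the other regions (log2 2.01 ± 0.15 SE, adjusted p = 5.69e-10, limma) and 4.29-fold higher than PV (2.10 ± 0.20 SE, adjusted p = 2.12e-08). *Kcnj8* was 2.89-fold lower in LA than in V (log2 -1.53 ± 0.18 SE, adjusted p = 1.20e-06) and 1.62-fold lower in SA than in V (adjusted p = 0.00499). It was 1.78-fold higher in SA than in LA (adjusted p = 0.00741) and 1.82-fold higher in PV than in LA (adjusted p = 0.00595), and both just missed the threshold with only the arrays compared (adjusted p = 0.0502 and 0.0511).

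*Abcc9*, its neighbour on chromosome 4, encodes the receptor subunit shared by ventricular and vascular KATP channels. Its signals were 7623, 8489, 8400 and 7614 in LV, 9058, 8074 and 7325 in RV, 5938, 6378, 6272 and 6076 in SA, 4118, 3811, 3704 and 4016 in LA and 4609, 5786, 3626 and 4151 in PV. LA was below SA, and SA below V, on every array. *Abcc9* was 2.06-fold lower in LA than in V (log2 -1.05 ± 0.10 SE, adjusted p = 9.86e-08, limma), 1.58-fold higher in SA than in LA (adjusted p = 0.000522) and 1.31-fold lower in SA than in V (adjusted p = 0.00565). The dimmer probe was 2.0-fold lower in LA than in V and 1.96-fold higher in SA than in LA, but its difference between SA and V was -0.02 and was not called. In PA the signals were 6557, 8250.2, 6831 and 7330, within or just below the range of V. PA was 1.23-fold higher than the mean of the other regions (adjusted p = 0.00636), with overlap, or 2.82-fold by the dimmer probe, and 1.61-fold higher than PV (adjusted p = 2.82e-05).

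The 2 probes of *Abcc9* disagreed in PA. The dimmer probe read 375, 564, 481 and 499 in PA, against 190, 208, 199 and 214 in LV and 272, 201 and 170 in RV. PA was thus 2.29-fold higher than V by the dimmer probe (log2 1.20 ± 0.15 SE, adjusted p = 1.06e-06 over all probes, limma) and at -0.16 by the brighter probe (adjusted p = 0.223). Which transcripts each probe reads was not tested.

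**Figure D3:**
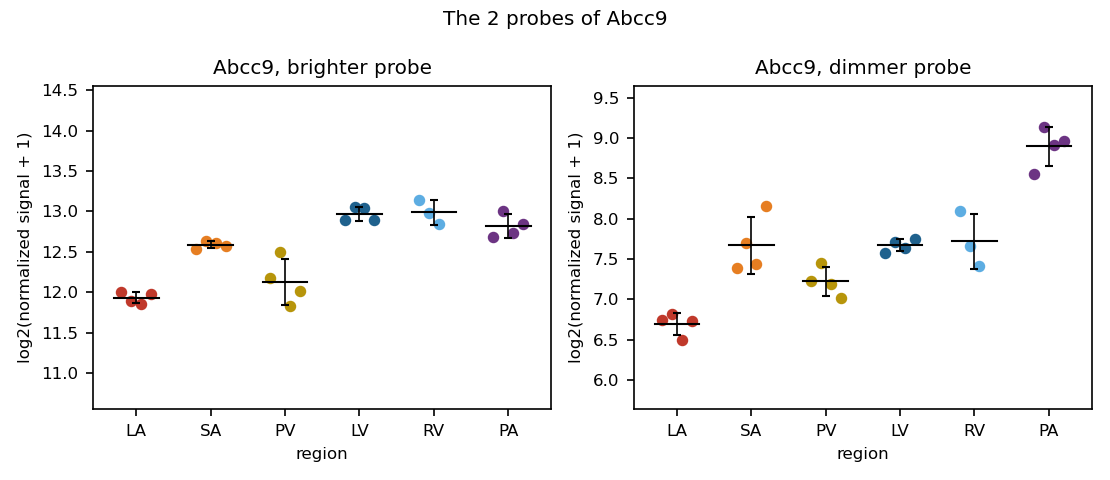
The panels plot log2(normalized signal + 1) of the brighter and of the dimmer *Abcc9* probe by region, on y axes of equal length. Points are arrays, and lines and bars are the mean and SD (n = 4 arrays, 3 for RV). Both probes are lowest in LA, and PA is near LV and RV by the brighter probe but highest by the dimmer one.

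The summed signal of pericyte markers (6 of 6 measured) was highest in PA, as was *Kcnj8*. It was 12716 to 13746 in LA, 13544 to 16539 in SA, 17581 to 22018 in PV, 22305 to 28059 in LV and RV and 77942 to 93121 in PA. The sums of SA overlapped those of LA and lay below those of PV. *Kcnj8* by contrast was 1.78-fold higher in SA than in LA and overlapped between SA and PV (log2 difference of PV from SA 0.03). *Abcc9* was lower in PV than in SA and, by its brighter probe, not above V in PA, while the pericyte sum was higher in PV than in SA and in PA than in V. Of the pericyte markers, *Rgs5* did not follow the sum, with a mean log2 signal of 10.91 in PA against 12.13 in LV and 11.84 in RV. Smooth muscle markers (6 of 6) summed to 25650 to 31172 in LA, 42329 to 55306 in SA and 49491 to 69358 in PV, so that SA and PV lay above LA on every array, and to 26135 to 32466 in LV and RV, which overlapped LA. Endothelial markers (6 of 6) summed to 66926 to 82443 in LV and RV and to 26505 to 51125 in the other regions. The part of these lists in the differences of *Kcnj8* and *Abcc9* was not tested, and likewise that of cardiomyocyte markers in the low PA signals of the other genes. In whole tissue, fewer cells of a type and less RNA per cell cannot be told apart.

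Ratios of 2 genes on the same array were compared to see whether channel partners changed unequally, with the arrays of V, and of the regions other than PA, pooled. Of 18 ratios, 12 differed (exact two-sided permutation tests, adjusted over the 18), 5 of 6 in LA against V, 1 of 6 in SA against LA and 6 of 6 in PA, of which the ratio of *Kcnj2* and *Kcnj12* rests on a gene below background in PA. *Kcnj8* relative to *Kcnj11*, the alternative KATP pores, was 2.30-fold lower in LA than in V (exact p = 0.00303, adjusted p = 0.00682) and 406-fold higher in PA than elsewhere (exact p = 0.000113, the smallest the 8855 splits allow, adjusted p = 0.000407). *Abcc8* relative to *Abcc9*, the alternative receptors, was 2.33-fold higher in LA than in V (exact p = 0.00303) and 21.8-fold lower in PA (exact p = 0.000113). *Kcnj11* relative to *Abcc9* was 1.63-fold higher in LA than in V (exact p = 0.00303) and 123-fold lower in PA (exact p = 0.000113). With the dimmer probes, which for *Kcnj11* were above background on 2 of the 4 PA arrays, *Kcnj8* relative to *Kcnj11* was 5.31 on the log2 scale in PA in place of 8.67, and *Kcnj11* relative to *Abcc9* was -4.79 in place of -6.95. *Kcnj8* relative to *Abcc9*, the vascular pair, was 1.41-fold lower in LA than in V (exact p = 0.0182), where the values overlapped, and 3.3-fold higher in PA (exact p = 0.000113). The call in LA was lost in 8 of 30 other settings, among them without LA replicate 2, 3 or 4, LV replicate 2, 3 or 4 or RV replicate 2. By the dimmer *Abcc9* probe the latter difference fell from 1.72 to 0.53 on the log2 scale. In SA against LA, where 70 splits allow no exact p below 0.0286, *Kcnj2* relative to *Kcnj12* was called (exact p = 0.0286, adjusted p = 0.0429), with *Kcnj2* not above background in SA. This call was lost in 8 of 30 other settings, among them without any of the SA arrays or without LA replicate 3 or 4. In LA against V the ratio was called with overlapping values (exact p = 0.0152), lost without LA replicate 1, 3 or 4, with *Kcnj2* above background on 4 of 7 V arrays. In PA the ratio was called too (exact p = 0.0114, lost without PA replicate 2), but *Kcnj2* was above background on 0 of 4 PA arrays while *Kcnj12* fell, so that no size is given for either and no direction in PA. *Kcnj3* relative to *Kcnj5* was 11-fold higher in PA (exact p = 0.000113), with *Kcnj5* above background on 2 of the 4 PA arrays. The value with the dimmer *Kcnj5* probe, -1.73 on the log2 scale, rests on a probe above background on 1 of the 4 PA arrays and gives no direction.

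**Figure D4:**
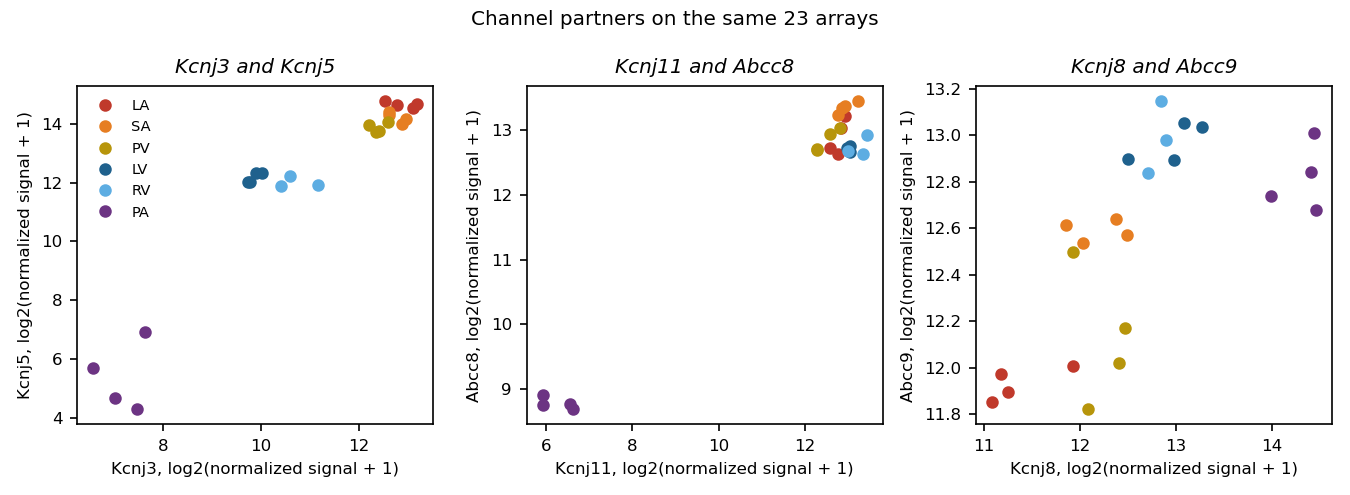
Each point is 1 of 23 arrays, with log2(normalized signal + 1) of one partner on the x axis and of the other on the y axis, in the colour of its region. *Kcnj3* and *Kcnj5* step together from V to LA, SA and PV. *Kcnj11* and *Abcc8* set the PA arrays far apart, and the SA arrays are highest in *Abcc8*. The PA arrays have the highest *Kcnj8* but *Abcc9* at the level of V.

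PV was compared with LA, which it adjoins, and with SA, since both PV and SA carry pacemaking or ectopic activity. Against LA, 1 of the 9 genes was higher in PV (*Kcnj8*) and 0 were lower, with 13.5% of all genes called, 6.99% higher and 6.51% lower. The rest of the genes lay between -1.36 (*Kcnj4*) and 0.20 (*Abcc9*) on the log2 scale. *Kcnj3* was at -0.51 (95% interval -0.94 to -0.08, adjusted p = 0.113). With normexp background correction *Kcnj3* (adjusted p = 0.010) and *Kcnj5* (adjusted p = 0.00173) were called lower in PV. Against SA, 0 were higher and 2 were lower (*Abcc8* by 1.42-fold and *Abcc9* by 1.38-fold), with 3.49% of all genes called, 2.71% higher and 0.783% lower. Both calls were lost with only the arrays compared (adjusted p = 0.0879 and 0.182). They were also lost without PV replicate 3 or 4 or without SA replicate 1, 2 or 3. In PA against PV, 2 were higher and 5 were lower, with 53.4% of all genes called, 29.7% higher and 23.7% lower.

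LV and RV, which the study joined as V, differed in 0 of the 9 genes by limma after adjustment, and in 1 at an unadjusted p below 0.05, with 0.522% of all genes called, 0.298% higher and 0.224% lower. That gene was *Kcnj3*, 1.82-fold lower in LV than in RV with no overlap between the 4 LV and 3 RV arrays (log2 -0.87 ± 0.22 SE, unadjusted p = 0.000939, adjusted p = 0.0883). It was called with normexp background correction (adjusted p = 0.0310), with a trend in the prior variance (adjusted p = 0.0494) and without PA replicate 3. Summed atrial myocyte markers were 237646 to 251527 in RV and 298883 to 423208 in LV, and their part in the difference of *Kcnj3* was not tested.

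Other inward rectifiers were given by a list of 8 genes (*Kcnj1*, *Kcnj6*, *Kcnj9*, *Kcnj10*, *Kcnj13*, *Kcnj14*, *Kcnj15*, *Kcnj16*). In LA against V and in PA against the other regions, 0 of the 8 were called, against 35.4% and 59.1% of all genes, and in SA against LA 1 was higher, against 7.03%. A count of 0 says little for most of them: *Kcnj1* and *Kcnj13* were well above background on 0 of 23 arrays, *Kcnj15* on 1, *Kcnj6* and *Kcnj10* on 2, *Kcnj16* on 5 and *Kcnj9* on 16. This was *Kcnj14*, which encodes a strong rectifier subunit, and the only one well above background on all 23 arrays. It was 2.40-fold higher in SA than in LA (log2 1.27 ± 0.18 SE, adjusted p = 0.000101, limma), with mean log2 signals of 9.33 in PV, 8.73 in SA, 8.06 in PA, 7.58 in RV, 7.57 in LV and 7.46 in LA. Its difference between PV and LA was 1.86 ± 0.18 SE (adjusted p = 1.87e-06).

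The genes whose signals ran most like those of each member over the 23 arrays were named among 13110 candidates by Pearson's correlation, a description of arrays that share regions. For *Kcnj3* they were *Art1* (0.99), *Khdrbs3* (0.98) and *Ppp1r1a* (0.98), and for *Kcnj5* they were *Igsf1* (0.99), *Spata46* (0.99) and *Smpx* (0.99). For *Kcnj12* they included *Vnn1* (0.97) and *Kcnj5* (0.97), so that 1 member ranked among the genes most like another. For *Kcnj11* they were *Rxrg* (0.997), *Lmo7* (0.997) and *Clip4* (0.996), and for *Abcc8* they were *Hrc*, *Ryr2* and *Cabcoco1* (0.99 each). For *Kcnj8* they were *Acvrl1* (0.96), *Impdh1* (0.95) and *Fermt2* (0.95), and for *Abcc9* they were *Lims2* (0.92), *Gpd2* (0.91) and *Emp2* (0.90). The dim genes had weaker likeness, 0.78 for *Prss39*, 0.77 for *C8h11orf52* and 0.72 for *Efr3a* with *Kcnj2*, and 0.78 for *Aqp11*, 0.76 for *Foxa3* and 0.73 for *Bola1* with *Kcnj4*.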

How the data were processed

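RNA of 23 tissue samples was labelled with Cy3 and measured on 23 rat gene expression arrays of Agilent (SurePrint G3, 8x60K v2). The authors' deposited normalized intensities, on a linear scale, were used. They are the scanner's background-subtracted intensity multiplied by 1 factor per array (0.881 to 1.52), within 2% for 99.6% to 99.8% of the probes, so that the 90th percentiles lie between 3984 and 3988, and the scanner files deposited by the authors gave the flags for signals well above background. Of 45596 probes, 156 with a missing value were left out, and 21047 were named through RefSeq accessions. The log2 of the signal plus 1 was fitted with limma (version 3.58.1, R 4.3.3) over 23 arrays with 6 regional means, 8 contrasts and, for each member, contrasts of regions that are neighbours in the order of its levels. Benjamini-Hochberg adjustment ran over all 16089 genes with a log2 signal above 4 on at least 1 array, and the threshold was 0.05. A fit of single probes, with PA against V as a further contrast, was added after seeing the data. Partner ratios were tested by exact permutation. The procedure was tested on simulated data. Plots were made in matplotlib 3.10.9 (Python 3.11.15, pandas 2.3.3). Alternatives were scanner signals scaled to the 90th or 75th percentile, quantile normalization, normexp correction (offset 50), other filters and probes, a pseudocount of 16, replicate, slide or row as a block, a trend in the prior variance, only the arrays compared, the methods' analysis of variance over the 6 regions, and each array left out. The genes, lists and tests were chosen with earlier results of these data known. All 9 genes and the list genes past the threshold in LA against V, SA against LA or PA against the other regions are named, with the 3 genes most like each member. Some genes that this rule would name are not reported here. Precision is limited by the number of arrays.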

Additional observations from a re-analysis of the deposited data

Results flagged for a closer look

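Of 45 groups of 4 arrays tested for the 9 genes, 1 had an array far from the others by Dixon's test, which flags about 1 group in 20 by chance. This was *Kcnj8* in PA, where replicate 3 had a log2 signal of 13.99 and the other PA arrays lay between 14.41 and 14.46. All 4 were above every array of the other regions.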

How the results depend on the processing

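The results followed were the 18 ratios and the gene differences called in the main fit or in at least 1 setting. Differences never called are not counted, so the counts give no rate over all comparisons. Among these 59 results, 35 kept their direction and side of the threshold under every alternative run, 12 lost and 10 gained a call, and 2 reversed. Both reversed with the dimmer probe, an alternative chosen after seeing the data, *Kcnj8* minus *Abcc9* in SA against LA at -0.14 and *Kcnj3* minus *Kcnj5* in PA at -1.73, where that *Kcnj5* probe was above background on 1 of 4 arrays. The number of genes called in PV against LA was 1, and 3 with normexp background correction (*Kcnj3* and *Kcnj5* added, lower in PV), 2 with the dimmer probe (*Abcc9* added, higher in PV) and 1 to 2 with 1 array left out. In PV against SA it was 2, and 0 with the dimmer probe, 0 with only the arrays compared and 0 to 2 with 1 array left out. In LV against RV it was 0, and 1 with normexp, 1 with a trend in the prior variance and 0 to 1 with 1 array left out. The other counts stayed within 7 to 8 over the 6 regions, with *Kcnj2* the gene lost, 5 to 6 for LA against V, 6 to 7 for SA against V, 2 to 4 for SA against LA, 7 to 8 for PA against the other regions and 9 to 13 for the ratios.

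Replicate numbers gave no sign of pairing the samples, which does not show that they are unpaired. Deviations of same-numbered arrays had a median correlation of -0.04 over 55 pairs, and 4 of 23 arrays were nearest their own number. Arrays followed their row more, with a median correlation of 0.085 over 107 pairs in the same row and -0.10 over 113 pairs in different rows. The main fit had no term for the row. With the replicate block, 7 genes differed over the 6 regions, 5 in LA against V, 6 in SA against V, 3 in SA against LA, 1 in PV against LA, 2 in PV against SA, 0 in LV against RV, 8 in PA and 7 in PA against PV, and the block with the third RV array numbered 4 gave the same counts. Within each slide and each row, all 33 called differences kept their direction. For most of them the groups did not overlap, so that the direction was fixed beforehand and says nothing about slide or row. Signal over background limits *Kcnj2* and *Kcnj4*. Over the settings, the differences in PA ranged from -8.51 to -2.80 for *Kcnj5* (the latter from that dim probe), -6.77 to -3.28 for *Kcnj11*, -4.72 to -3.98 for *Kcnj3*, -3.45 to -2.27 for *Kcnj12* and -4.17 to -3.19 for *Abcc8* on the log2 scale.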
